A study of Mus musculus with 6 samples.

Results

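The interferon genes described here are 9 members taken by name: *Stat2*, *Irf1*, *Irf7* and *Irf9*, which carry the signal, and *Isg15*, *Ifit1*, *Ifit3*, *Bst2* and *Ifitm3*, which are effectors. All 9 were found by Ensembl identifier among the 11234 genes measured. MC3T3-E1, a clonal mouse preosteoblast line labelled as strain C57BL/6 and used at passage 4, was kept without serum for 24 h. It was then grown for 24 h in complete medium without C3G (control, n = 3) or with 100 μmol/L C3G (n = 3), a dose the labels write with the unit um/l. C3G is cyanidin-3-O-glucoside, an anthocyanin pigment of plants. No genotype or other agent differed between the groups, and 1 cell line stands for preosteoblasts here. Nothing in the sources used here says that the 3 libraries of a group came from separate cultures, so the p values measure the spread between these libraries, which may be technical. Expression is given as FPKM, a fragment count divided by gene length and library total, so levels of different genes are compared per length.

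Type I interferons bind a receptor whose JAK kinases phosphorylate STAT proteins. STAT2 then joins IRF9 in ISGF3, a complex that binds the interferon-stimulated response element (ISRE) in the promoters of antiviral genes. Type II interferon acts at the gamma-activated site (GAS), and *Irf1* is a well-known target of that route. In bone, interferon-β made in response to RANKL restrains osteoclast formation, and osteoblast-lineage cells themselves respond to interferon.

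The promoters of the members were read first, because the effectors are classical ISRE genes. Windows from 250 bases before to 50 bases after each start site in the RefSeq annotation of GRCm38.p6 were searched for the ISRE letters GAAANNGAAA, which read TTTCNNTTTC on the other strand, and for the GAS letters TTCNNNGAA, which read the same on both strands. The ISRE letters were found in 6 of the 9 members. The following stretches are printed 5′ to 3′ on the strand of the gene, with the ISRE letters in capitals, to show how closely the matches lie in the effectors and in *Stat2*.
Isg15: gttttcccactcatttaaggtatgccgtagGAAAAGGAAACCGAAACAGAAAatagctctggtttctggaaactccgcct
Ifit1: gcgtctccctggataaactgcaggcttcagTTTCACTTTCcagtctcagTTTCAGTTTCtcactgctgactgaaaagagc
Ifit3: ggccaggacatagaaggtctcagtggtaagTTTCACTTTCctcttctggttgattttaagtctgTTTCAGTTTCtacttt
Bst2: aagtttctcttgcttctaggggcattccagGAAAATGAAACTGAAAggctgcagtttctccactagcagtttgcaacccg
Stat2: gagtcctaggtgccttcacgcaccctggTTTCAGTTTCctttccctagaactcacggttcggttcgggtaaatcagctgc
Ifitm3: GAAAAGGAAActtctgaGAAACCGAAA

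In *Isg15* (chr4:156200847-156200926, minus strand) 3 overlapping matches began 78 bases before the start site and formed an unbroken run of 22 bases. In *Ifit1* (chr19:34640755-34640834, plus strand) and *Ifit3* (chr19:34583343-34583422, plus strand) 2 separate matches began 104 and 156 bases before the start site. In *Bst2* (chr8:71537553-71537632, minus strand) 2 overlapping matches began at 130 bases. *Stat2* (chr10:128270248-128270327, plus strand) held 1 match, 222 bases before the start. *Ifitm3* (chr7:141010716-141010742, minus strand) held both of its matches just after the start site. The windows of *Irf7* and the 2 windows each of *Irf1* and *Irf9* held no ISRE letters. The GAS letters were found in 3 members, *Irf1*, *Bst2* and *Ifitm3*, and in *Bst2* and *Ifitm3* they overlapped the ISRE letters. The *Irf1* match lay 90 bases before the start site (chr11:53769909-53769948, plus strand), shown with the GAS letters in capitals.
Irf1: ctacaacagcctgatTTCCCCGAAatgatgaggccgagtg

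Over all promoter windows of the same length, 1131 of 32851 (3.44%) held the ISRE letters and 2726 (8.3%) held the GAS letters. Among the 8801 measured genes with a window, the shares were 3.58% and 8.1%. The other interferon pathway genes described further on held ISRE letters in 21 of 69 (30.4%) and GAS letters in 15 of 69 (21.7%). A match of letters is a description of the sequence and not a measurement of binding.

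The libraries were not alike. Control replicate 1 correlated with the other 5 libraries at r of 0.886 to 0.939 over all genes on the log2 scale, and the other 5 correlated among themselves at 0.968 to 0.992. Its median FPKM was 5.80 against 6.93 to 7.40, and 71 genes were listed at 0 in it against 9 to 18. The deviation of a gene in control replicate 1 from its mean rose with transcript GC content, with a Spearman's rho of 0.748, and that in C3G replicate 1 did so too, with 0.631. The members had a GC content of 43.3% to 55.4%, against a median of 49.6% over all genes. The difference between the group means went with GC content too, with a rho of -0.541 over all genes, and this touches every comparison of C3G with control given here. Over all genes the deviations from the group mean also went together in libraries with the same replicate number (r of 0.653, 0.580 and 0.440), so the fit with the replicate number as a block is given beside the unpaired fit where it bears on a result. All differences, intervals and calls are otherwise from the unpaired fit. Replicates 2 and 3 of different groups also went together (0.307 and 0.300), and pairs of replicate 1 with another number did not (-0.64 to -0.41). Of the 11 osteoblast markers on the list 8 were analysed, and none of these was called. Their summed FPKM was 2490 to 7600 in control and 2520 to 3460 in C3G, most of it from the matrix genes *Col1a1*, *Col1a2* and *Sparc*. The highest sum was that of control replicate 1, where *Col1a1* was at 4430 against 923 to 1480 in the other 5 libraries, while the osteoblast transcription factor *Sp7* was near the lower limit of the table (0.237 to 0.857 FPKM), and the other 3 markers were not analysed here.

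The 9 members were all expressed, but at very different levels. *Ifitm3*, a membrane protein that hinders the entry of enveloped viruses, was by far the highest. *Irf7*, the transcription factor that amplifies interferon production in infected cells, was the lowest. In control the order by mean FPKM was *Ifitm3*, *Isg15*, *Bst2*, *Irf1*, *Stat2*, *Ifit3*, *Ifit1*, *Irf9* and *Irf7*, from 394 ± 86.8 (SD, n = 3) to 0.915 ± 0.293 (SD, n = 3). In C3G the first 4 places were the same, *Ifit3* stood before *Stat2*, and *Irf9* stood before *Ifit1*. Only 3 of the 8 neighbouring pairs in each order had ranges that did not overlap: *Ifitm3* and *Isg15*, *Ifit3* and *Ifit1*, and *Irf9* and *Irf7* in control, and *Ifitm3* and *Isg15*, *Stat2* and *Irf9*, and *Ifit1* and *Irf7* in C3G. In control, each of *Isg15*, *Bst2*, *Irf1* and *Stat2* overlapped the next in the order. Among all genes *Ifitm3* lay at the 99.6th percentile of mean FPKM, *Isg15* at the 70.7th, *Stat2* at the 47.6th and *Irf7* at the 5.5th.

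**Figure D1:**
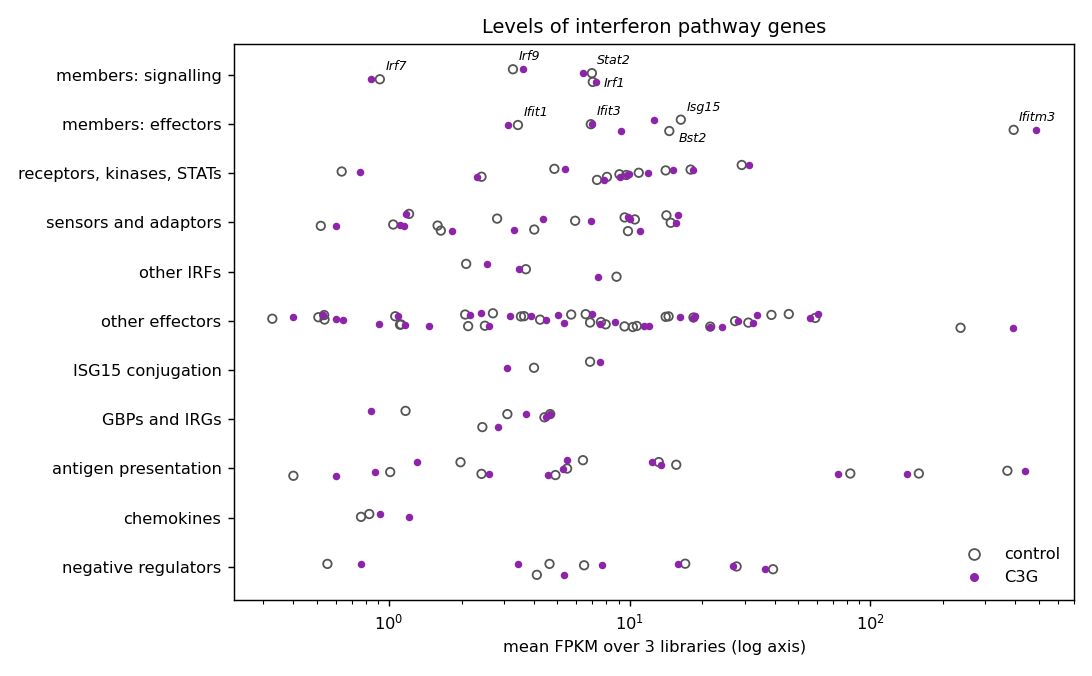
Mean FPKM over 3 libraries on a log axis for the 9 members and the other interferon pathway genes by role, with open circles for control and filled points for C3G. Apart from *Ifitm3* and *Irf7*, the members lie between 3.11 and 16.3 FPKM, and *Bst2* has the widest gap between its group means (14.6 in control and 9.22 in C3G).

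Among the members that carry the signal, none passed the test between the groups. *Stat2* (chr10:128270559-128292849, plus strand), the STAT that is specific to interferon signalling, was listed at 6.56, 6.98 and 7.34 FPKM in control replicates 1, 2 and 3 and at 6.42, 5.31 and 7.52 in C3G. The control values lay within the range of the C3G values, C3G replicate 2 being the lowest library and C3G replicate 3 the highest. The difference on the log2(FPKM + 1) scale was -0.11 (95% interval -0.52 to 0.30, exact permutation p = 0.6). *Irf9* (chr14:55603571-55610030, plus strand), the DNA-binding subunit of ISGF3, was listed at 2.85, 2.70 and 4.25 in control and at 3.70, 3.05 and 4.10 in C3G. In both groups replicate 3 was the highest and replicate 2 the lowest, and the groups overlapped. Its difference was 0.12 (95% interval -0.35 to 0.59, exact permutation p = 0.6). Exons of *Irf9* overlap those of *Rnf31* on the same strand, so its reads are less certain than those of *Stat2*.

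*Irf1* (chr11:53770014-53778374, plus strand), a transcription factor best known downstream of interferon-γ, was listed at 5.72, 7.67 and 7.66 in control and at 7.78, 7.28 and 6.57 in C3G. Control replicate 1 was the lowest library and C3G replicate 1 the highest, and the rest lay between. Its difference was 0.04 (95% interval -0.37 to 0.46, exact permutation p = 0.8), and it turned to -0.03 and -0.02 under quantile normalization and median centring. *Irf7* (chr7:141262706-141266481, minus strand) was listed at 1.02, 0.584 and 1.14 in control and at 1.2, 0.551 and 0.777 in C3G. Replicate 2 was the lowest library of each group, and the groups overlapped. Its difference was -0.06 (95% interval -0.50 to 0.38, exact permutation p = 0.9), and at this level the added pseudocount of 1 makes the difference smaller than that of the FPKM values themselves. Genes on the opposite strand overlap exons of *Irf1* (*Gm17334*) and of *Irf7* (*Phrf1*), and how strand was used in counting is not given in the sources used here.

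Among the effectors, none passed the test between the groups either. *Isg15* (chr4:156199424-156200818, minus strand) encodes a ubiquitin-like protein that is attached to other proteins after interferon. It was listed at 21.2, 9.54 and 18.2 in control and at 14.6, 9.02 and 14.1 in C3G. Both replicate 2 libraries were low, and within each pair of the same number C3G was the lower, at 0.692, 0.945 and 0.778 times control. The means were 16.3 ± 6.04 and 12.6 ± 3.12 (SD, n = 3), and the difference of -0.31 (95% interval -1.08 to 0.47) did not pass (exact permutation p = 0.5). With the replicate number as a block the interval narrowed to -0.67 to 0.06, and with that block and a GC correction together *Isg15* was called lower (-0.32, limma adjusted p = 0.785), as 1 of 246 genes called in that fit. Its difference was -0.09 without control replicate 1, -0.10 without C3G replicate 2 and -0.63 without control replicate 2. *Bst2* (chr8:71534255-71537456, minus strand) encodes tetherin, which holds budding virions at the cell surface. It was listed at 24.9, 7.42 and 11.4 in control and at 11.2, 6.33 and 10.1 in C3G. Control replicate 1 stood far above the other 5 libraries, replicate 2 was again the lowest in each group, and C3G was the lower in each pair, at 0.451, 0.852 and 0.884 times control. The difference was -0.48 (95% interval -1.50 to 0.53, exact permutation p = 0.4), and without control replicate 1 it was -0.04. With the block its interval was -1.07 to 0.10. Lower values in C3G in 3 of 3 pairs were found for 2 of the 9 members, *Isg15* and *Bst2*, and for 11.6% of all genes. Higher values in 3 of 3 pairs were found for 0 members and for 14.2% of all genes.

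*Ifit1* and *Ifit3* belong to the IFIT family, whose proteins bind viral RNA or assist those that do. *Ifit1* (chr19:34640871-34650009, plus strand) was listed at 3.84, 1.89 and 4.56 in control and at 3.78, 2.12 and 3.43 in C3G. *Ifit3* (chr19:34583531-34588731, plus strand) was listed at 5.90, 4.71 and 10.1 in control and at 6.84, 5.33 and 8.72 in C3G. In both genes replicate 2 was the lowest library of each group, and the control range contained the C3G range. The differences were -0.08 for *Ifit1* (95% interval -0.78 to 0.63, exact permutation p = 0.7) and 0.05 for *Ifit3* (95% interval -0.65 to 0.74, exact permutation p = 1), the latter turning to -0.02 under quantile normalization or median centring. In the *Ifit3* transcript 41.1% of all 75-base stretches also occur in *Ifit3b*, so its value is uncertain where reads were shared between these copies. The share of *Ifit1* stretches found in *Ifit1bl2* was 5.19%.

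*Ifitm3* (chr7:141009586-141010770, minus strand) was listed at 295, 458 and 429 in control and at 554, 501 and 412 in C3G. Control replicate 1 was the lowest library and C3G replicate 1 the highest, while C3G replicate 3 lay below 2 control libraries. The means were 394 ± 86.8 and 489 ± 71.8 (SD, n = 3), and the difference of 0.33 (95% interval -0.25 to 0.90) did not pass (exact permutation p = 0.3). Within pairs C3G stood at 1.88, 1.1 and 0.960 times control, so replicate 1 differed most, and without control replicate 1 it was 0.13.

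**Figure D2:**
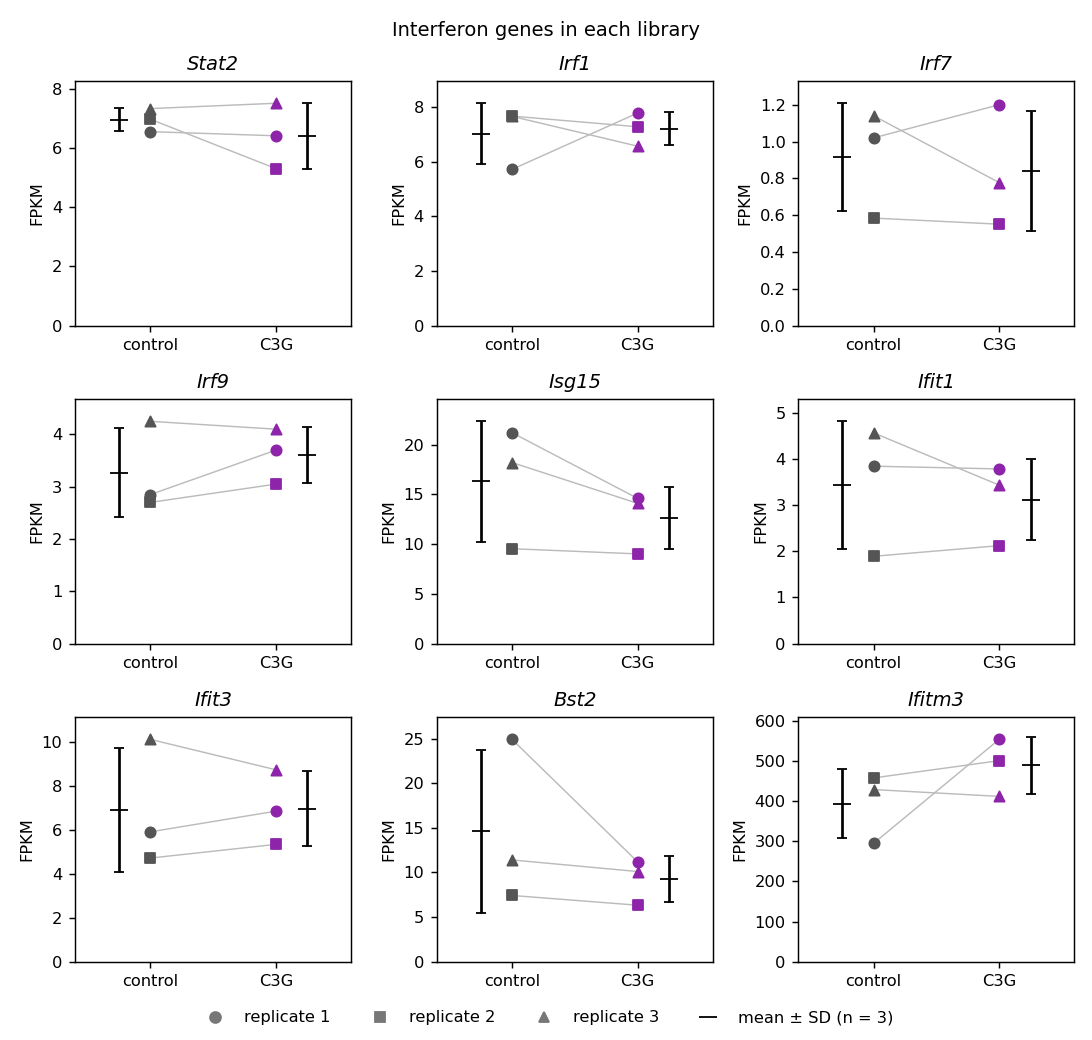
FPKM of each member in each library, with control on the left and C3G on the right of each panel, a symbol for each replicate number, a grey line joining libraries of the same number, and bars for the mean ± SD (n = 3). The groups overlap in every panel, and the squares of replicate 2 are the lowest symbols of both groups for *Irf7*, *Irf9*, *Isg15*, *Ifit1*, *Ifit3* and *Bst2*.

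Across the comparison, 0 of the 9 members were called between C3G and control, where a call needed a limma p under 0.05 before adjustment and a difference of at least 1.2-fold, and 0 had an unadjusted p under 0.05. Over all genes 73 of 11234 (0.65%) were called, 45 higher (0.401%) and 28 lower (0.249%). After Benjamini-Hochberg adjustment over all genes 0 genes passed, where 74 (0.659%) had an unadjusted p under 0.05, and the adjusted limma p of each member was 0.992. The 3 control and 3 C3G values overlapped in 9 of 9 members, while they did not overlap in 452 genes (4.02%) of the whole table. In the two-sided exact permutation test, in which 3 against 3 allows no p under 0.1, the members ranged from p = 0.3 for *Ifitm3* to p = 1 for *Ifit3*. The median difference of the members was -0.06 and that of all genes 0.06. These intervals are wide: they reach a fold change of 1.2 in both directions except at the lower end for *Ifitm3*, so for 8 members a change of that size in either direction lies within the interval. With the replicate number as a block, 0 members and 169 genes (1.5%) were called.

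**Figure D3:**
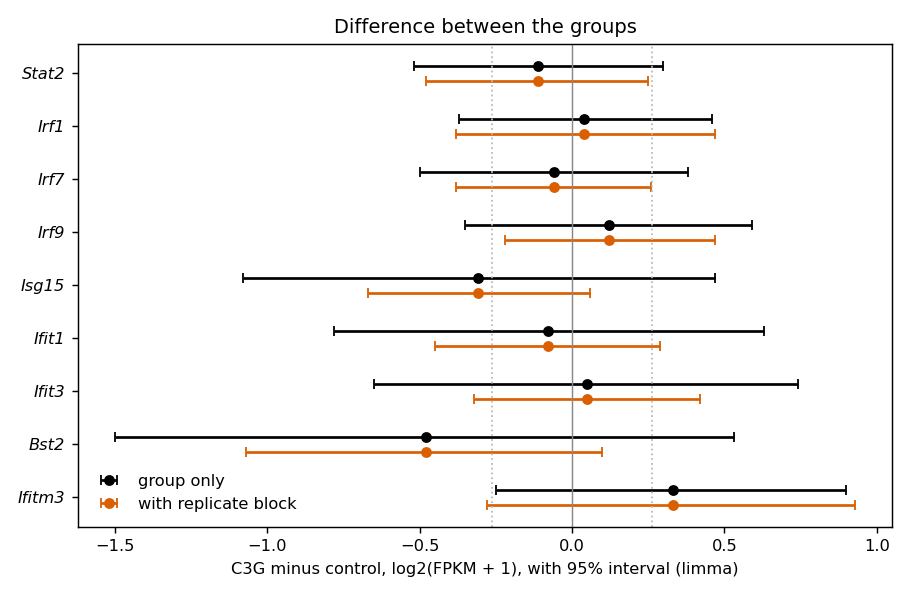
Difference between C3G and control on the log2(FPKM + 1) scale for each member, with the limma estimate as a point and its 95% interval as a bar, for the fit with group only (black) and with the replicate number as a block (orange), and dotted lines at a fold change of 1.2. Every interval includes 0, and those of *Isg15* and *Bst2* with the block end at 0.06 and 0.10.

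The replicates of a group also differed among themselves. In 6 of the 9 members, *Irf7*, *Irf9*, *Isg15*, *Ifit1*, *Ifit3* and *Bst2*, replicate 2 was the lowest library in control and also in C3G, a pattern found in 15.9% of all genes. The same 6 stood at least 1.2 times higher in replicate 3 than in replicate 2 in both groups, as did 559 genes (4.98%) of the whole table. This pattern was noticed in these values, and its share is a description without a test. *Ifit1* was 2.41 times as high in replicate 3 as in replicate 2 of control and 1.62 times as high in C3G. For *Ifit3* these ratios were 2.13 and 1.64, for *Isg15* 1.91 and 1.57, and for *Bst2* 1.54 and 1.6. *Irf7* had ratios of 1.96 and 1.41 and *Irf9* of 1.57 and 1.35. *Irf1* and *Ifitm3* did not share the pattern, with ratios of 0.998 and 0.902 for *Irf1* and of 0.937 and 0.821 for *Ifitm3*. *Stat2* stood between, with 1.05 in control and 1.42 in C3G.

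**Figure D4:**
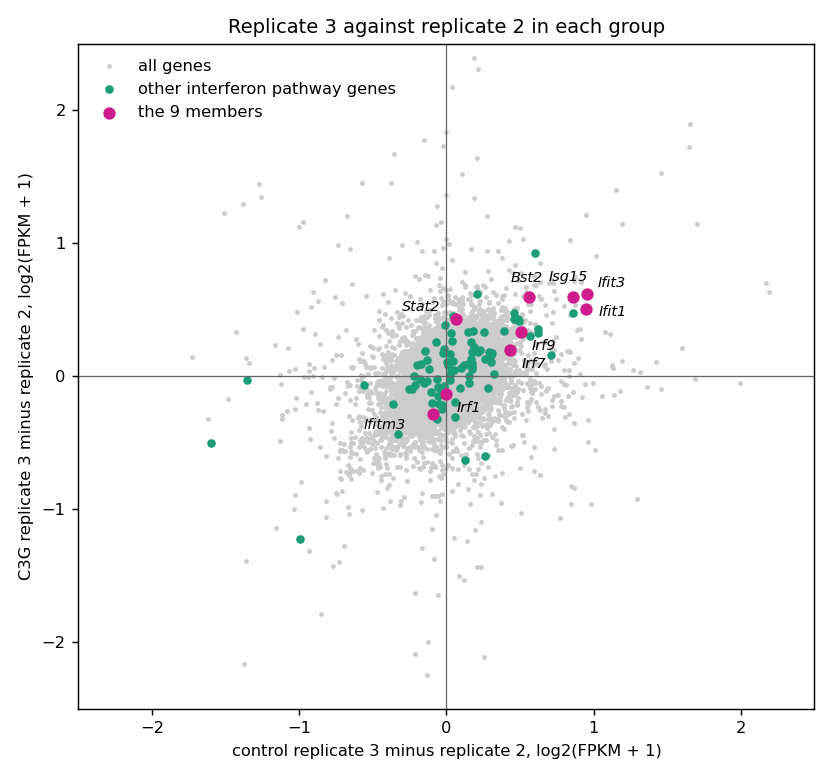
Replicate 3 minus replicate 2 on the log2(FPKM + 1) scale, in control on the horizontal and in C3G on the vertical axis, for all genes in grey, the other interferon pathway genes in green and the members in magenta. *Irf7*, *Irf9*, *Isg15*, *Ifit1*, *Ifit3* and *Bst2* lie to the upper right, *Irf1* and *Ifitm3* lie on the lower side near the centre, and 12 genes fall outside the axes.

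Over all genes, GC content was weakly related to the difference between replicates 3 and 2, with a Spearman's rho of 0.165 in control and 0.031 in C3G. Whether the cultures were handled on different days is not given in the sources used here. In RNA from bulk cultures, fewer cells expressing a gene and less RNA of it per cell cannot be told apart. The pattern was also counted by the ISRE letters. Of 309 measured genes outside the list with the letters in their promoter, 12.0% were lowest in replicate 2 of both groups and 6.47% stood at least 1.2 times higher in replicate 3 in both. Of 8484 genes without the letters, in which 1 symbol stands for 2 identifiers, the shares were 16.1% and 4.53%. Among the members, *Isg15*, *Ifit1*, *Ifit3* and *Bst2* carried the letters and showed the pattern, and *Irf1* had neither. *Irf7* and *Irf9* showed the pattern without the letters in their windows, and *Stat2* and *Ifitm3* carried the letters without the pattern. A link between the letters and the pattern was not tested.

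Over the 6 libraries the 36 pairs of members had a median Pearson's r of 0.37 (-0.79 to 0.95), and 7 pairs were over 0.7. Without control replicate 1 the median was 0.58. For the 6 members low in replicate 2, which were chosen on these values, the 15 pairs had a median r of 0.68, and of 0.93 without control replicate 1. The 6 points share library, depth and base composition, so these correlations are descriptions. The mean standardised profile of the 9 members contains each member itself, which raises that member's r with it. These values ran from 0.918 for *Ifit1* and 0.884 for both *Ifit3* and *Irf7* down to 0.102 for *Irf1* and -0.029 for *Ifitm3*. Among the genes outside the list with a mean FPKM of at least 1, those most like this profile over the 6 libraries were *Ndufaf7* (r = 0.984), *Cirbp* (0.974), *Kif22* (0.971), *Rgs4* (0.968) and *Tef* (0.966). Of the 10456 genes compared, 39 had an r over 0.9. The genes named were picked as the highest of these, and r does not reflect the size of a change. *Ndufaf7* ran from 11.2 to 14.3 FPKM and *Rgs4* from 7.67 to 12.5, where *Ifit1* ran from 1.89 to 4.56.

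Of the 129 other interferon pathway genes on the list 87 were analysed, and 2 of the 87 were called, both higher in C3G, where 73 of 11234 genes (0.65%) were called over the whole table. The list had a median difference of 0.06 over the list, equal to that over all genes. *Ly6e*, an interferon-inducible membrane protein, was listed at 3.61, 20.1 and 7.24 in control and at 27.7, 18.8 and 18.4 in C3G. Control replicate 2 lay within the C3G values and control replicates 1 and 3 below them. Its difference of 1.26 (SE 0.528, exact permutation p = 0.3, limma adjusted p = 0.992) was 0.75 without control replicate 1, 0.57 without replicate 1 of both groups and 1.85 without control replicate 2. The call was lost in 11 of 15 alternatives, among them the replicate block and leaving out control replicate 1 or 3 or any of the C3G libraries.

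By role, none of the 10 interferon ligands on the list was analysed here, and all 11 receptors, kinases and STATs were. *Jak1*, the kinase of both interferon receptors, was listed at 19.7, 35.6 and 32.4 in control and at 27.0, 34 and 33.3 in C3G. *Stat3* was listed at 17.9, 19.6 and 16.3 in control and at 19.7, 18.2 and 17.0 in C3G. In both the groups overlapped, and replicate 1 was the lowest library of each group for *Jak1*. Of 16 sensors and adaptors 13 were analysed, the highest being *Tbk1*, the kinase that activates IRF3 (8.15, 19.5 and 16.6 in control, 12.7, 16.9 and 16.9 in C3G), and *Mavs*, the mitochondrial adaptor of the RNA sensors (11.8, 14.8 and 15.9 in control, 17.0, 14.9 and 15.6 in C3G). *Ikbke*, an IRF3 kinase, was named after its values were seen. It was listed at 2.1, 1.31 and 1.35 in control and at 1.26, 1.12 and 1.08 in C3G. The groups did not overlap for 2 of the 87 other pathway genes, *Ikbke* among them, and for 452 genes (4.02%) of the whole table. The difference of *Ikbke*, -0.25, did not pass, with an exact permutation p of 0.1, the smallest that 3 against 3 allows. Of 6 other interferon regulatory factors 3 were analysed. *Irf3* was listed at 11.5, 6.60 and 8.37 in control and at 8.85, 6.32 and 6.88 in C3G, replicate 2 being the lowest library of both groups. *Irf5* was listed at 4.26, 3.19 and 3.66 in control and at 3.59, 3.50 and 3.35 in C3G, with overlap of the groups.

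Of 47 other antiviral effectors 32 were analysed. *Ifitm2*, a close relative of *Ifitm3*, was the highest, at 205, 338 and 169 in control and 584, 413 and 176 in C3G, and *Ifi27l2a* was next, at 98.6, 29.5 and 48.8 in control and 74.9, 44.2 and 49.5 in C3G. *Ifitm2* was lowest in replicate 3 of both groups, which is not the order of *Ifit1* or *Isg15*. Of the 3 enzymes of ISG15 conjugation 2 were analysed. The conjugating enzyme *Ube2l6* was listed at 7.88, 5.66 and 7.0 in control and at 8.09, 8.92 and 5.54 in C3G. The deconjugating enzyme *Usp18* was listed at 5.32, 2.08 and 4.6 in control and at 3.39, 2.31 and 3.60 in C3G. *Usp18* was low in both replicate 2 libraries, as *Isg15* was, and *Ube2l6* was not.

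Of 9 guanylate-binding proteins and immunity-related GTPases 5 were analysed, with *Irgm1* at 1.83, 5.72 and 6.46 in control and 3.24, 5.37 and 5.38 in C3G and *Gbp2* at 3.49, 5.24 and 4.53 in control and 4.80, 4.17 and 4.51 in C3G. Of 14 genes of antigen presentation 12 were analysed. The MHC class I light chain *B2m* was listed at 163, 432 and 518 in control and at 423, 428 and 470 in C3G, and the class I heavy chain *H2-D1* at 227, 111 and 138 in control and 183, 114 and 129 in C3G. Control replicate 1 was the lowest library for *Irgm1*, *Gbp2* and *B2m* and the highest for *H2-D1*. Of 6 interferon-inducible chemokines 2 were analysed, both near 1 FPKM, with *Ccl2* at 0.317, 0.902 and 1.07 in control and 0.959, 1.84 and 0.840 in C3G and *Ccl7* at 0.668, 1.12 and 0.688 in control and 0.404, 1.5 and 0.851 in C3G. All 7 negative regulators were analysed, the highest being the phosphatase *Ptpn11* (38.1, 42.2 and 37.9 in control, 31.3, 39.6 and 38.3 in C3G) and *Socs3*, a feedback inhibitor of JAK signalling (35.7, 24.8 and 23.1 in control, 30.8, 26.7 and 23.1 in C3G). None of the genes in this paragraph was called.

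The pattern of the replicates was also seen in part of these genes, and not in interferon genes alone. Of the 87, 21 (24.1%) were lowest in replicate 2 of both groups, 45 (51.7%) were higher in replicate 3 than in replicate 2 in both, and 14 (16.1%) were so by at least 1.2 times, beside 15.9%, 32.2% and 4.98% of all genes. Of the 8 osteoblast markers, 4 were lowest in replicate 2 of both groups, and 3 (37.5%), *Col1a1*, *Col1a2* and *Postn*, were at least 1.2 times higher in replicate 3 in both. Their part in the pattern of the interferon genes was not tested. The 14 pathway genes, named after their values were seen, were *Dhx58*, *Ifit3b*, *Oasl2*, *Ifi27*, *Rtp4*, *Parp14*, *Dtx3l*, *Trim21*, *Usp18*, *Gbp3*, *Irgm2*, *H2-K1*, *Tap1* and *Ptpn6*. *Ifit3b*, the near copy of *Ifit3*, was listed at 2.73, 3.05 and 5.14 in control and at 2.85, 2.00 and 4.70 in C3G. *Oasl2*, a relative of the OAS enzymes, was listed at 1.01, 0.829 and 1.51 in control and at 0.836, 0.627 and 1.26 in C3G. *Ifi27* was listed at 51.6, 26.8 and 37.9 in control and at 38.0, 26.8 and 36.4 in C3G. In all of these 3, the C3G replicate 2 library was the lowest of its group and the groups overlapped.

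Of the 10 immune cell markers on the list 2 were analysed, *Cd68* and *Lyz2*, and the other 8 were not analysed here, nor were the 4 endothelial markers. *Lyz2*, the lysozyme of macrophages and other myeloid cells, was called higher in C3G, at 32.1, 40.4 and 38.2 in control and 52.2, 45.1 and 54.3 in C3G (difference 0.44, SE 0.165, exact permutation p = 0.1, limma adjusted p = 0.992). Median centring, or leaving out control replicate 3 or C3G replicate 1 or 3, ended that call, with differences of 0.38, 0.47, 0.42 and 0.39. The sum of both markers, 32.3 to 41.0 in control and 45.8 to 55.5 in C3G, is nearly all *Lyz2*, since *Cd68* averaged 0.772 FPKM over the 6 libraries. The groups did not overlap for *Lyz2*, as for 4.02% of all genes, and its part in the values of *Ly6e* was not tested.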

How the data were processed

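RNA-seq of MC3T3-E1 cells was deposited as FPKM per gene, and the authors state that FPKM was calculated with Ballgown from stranded libraries. The submitters' processing notes name cutadapt, HISAT2 2.1.0, StringTie, STAR 2.5.2b and hg19, with no role. The identifiers carry GENCODE M21 mouse versions for 9812 of 11234 genes, so positions, overlaps and GC content are those of M21 on GRCm38. The table holds only genes whose larger group mean reaches 0.5 FPKM, and genes low in both groups are not analysed here. Read counts and depth are unknown, so no counting error is given.

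Groups and replicate numbers were taken from the sample titles. Values were transformed to log2(FPKM + 1), with no further normalization, and fitted over all genes with limma 3.58.1 in R 4.3.3 (lmFit, then eBayes with trend, two-sided), with group as the only term. A call needed p under 0.05 before adjustment and a difference of at least 1.2-fold, beside Benjamini-Hochberg adjustment over all genes. The study states thresholds of 0.05 and 1.2 too, but not whether its p was adjusted. Differences are on the log2(FPKM + 1) scale, which understates changes of low genes. Same-numbered libraries deviated together in all 3 pairs, by the correlations given with the library facts above, so the replicate number of the titles was used as a block in an alternative fit. The limma fit was tested on simulated data with independent noise, which held neither the GC trend nor the shared deviations of same-numbered libraries. Descriptions used scipy 1.17.1, pandas 2.3.3 and numpy 2.4.6 (Python 3.11.15).

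The members and lists were chosen with earlier results of these data known. Named were the 9 members, every called gene of the other pathway list and otherwise the 2 highest by mean FPKM in each role, and the 5 genes most like the members' profile. Of the called genes of the other pathway list, 1 is not reported here. *Ikbke* and the genes named for the replicate pattern were chosen after their values were seen. Results were recomputed with a pseudocount of 0.1, without genes under a mean of 1 FPKM, with quantile normalization, median centring, eBayes without trend, the replicate block, a GC correction (natural spline, 5 df), both together, leaving out each library, and leaving out replicate 1 of both groups.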

Additional observations from a re-analysis of the deposited data

How the results depend on the processing

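No member passed in 14 of 15 alternatives. The exception was the GC correction with the replicate block, where 1 member, *Isg15*, was called lower (-0.32) and 246 genes were called in all. *Irf7* could not be tested under the filter on mean FPKM. *Irf9*, *Isg15*, *Bst2* and *Ifitm3* kept their direction in all alternatives run, but their size depended on single libraries. Leaving out libraries gave 0.03 to 0.28 for *Irf9*, -0.63 to -0.09 for *Isg15*, -0.85 to -0.04 for *Bst2* and 0.04 to 0.45 for *Ifitm3*. *Stat2* ranged from -0.22 without C3G replicate 3 to 0.00 without C3G replicate 2. *Irf1* turned to -0.03 under quantile normalization and -0.02 under median centring, which both lower the median of all genes by 0.07, and *Ifit3* turned to -0.02 under each of these and to -0.05 under the GC correction, without and with the block. The ranges without single libraries or replicate 1 were -0.13 to 0.10 for *Irf1* (turned by control replicate 1 and C3G replicate 1), -0.19 to 0.06 for *Irf7* (control replicate 3 and C3G replicate 2), -0.36 to 0.11 for *Ifit1* (control replicates 1 and 3 and C3G replicate 2) and -0.15 to 0.32 for *Ifit3* (control replicates 1 and 2 and C3G replicate 3). The number of genes called over the whole table, 73, was 169 with the replicate block and 135 with the GC correction, where 67 were higher and 68 lower against 45 and 28. It ranged from 40 to 191 when libraries were left out: 144 without control replicate 1, 127 without control replicate 2, 45, 40 and 43 without C3G replicates 1, 2 and 3, and 191 without replicate 1 of both groups. Of the other pathway genes, 1 was called with a pseudocount of 0.1, quantile normalization, median centring or eBayes without trend, 0 under the filter or the GC correction, and 0 to 1 when libraries were left out. With the block and the GC correction together 2 were called, *Rtp4* and *Ifit3b*, both lower. With the block alone 2 were called, both higher, *Tlr4* among them, and *Ly6e* was lost. The median correlation of the members was 0.58 without control replicate 1, and the number of separated neighbours in the order of levels was 3 in each group without replicate 1 as with it. The causes were not tested.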
